A study of Mus musculus with 2 samples.

Results

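Long intergenic noncoding RNAs (lincRNAs) are transcripts from their own genes, lying mostly between protein-coding genes, that are not annotated as encoding protein. The 137 lincRNA genes described here are those of the 37309 genes listed for cultured intestinal subepithelial myofibroblasts (ISEMFs) that the deposited annotation types as lincRNA, that are not on a sex chromosome, that are neither H19 nor Meg3, and whose RPKM was 1 or more in either library. RPKM is reads per kilobase of exon, scaled by the size of the library, so it allows levels to be compared between genes. They make up 10.8% of the 1273 lincRNA genes listed, of which 980 had at least 1 read, whereas 9110 of 22379 protein-coding genes reached the same level. The level itself chose the lincRNAs, and 47 of them (20 in supportive and 27 in non-supportive ISEMFs) reached it in a single library, so that some difference between the libraries is built into the choice.

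The sequencing compared ISEMFs able to sustain the growth of intestinal epithelium in co-culture, called supportive, with ISEMFs that sustained it weakly, called non-supportive. Supportive ISEMFs were grown from the small intestine of neonatal wild type C57BL/6 mice and non-supportive ISEMFs from that of adult wild type C57BL/6 mice. Both were isolated by enzymatic digestion, expanded by passaging in the same medium with serum and epidermal growth factor, and sequenced without any further treatment that the sources name. Each population has 1 library. No difference between them therefore has a replicate check, none was tested, and donor age and supportive capacity cannot be told apart. The labels and methods do not state the passage at which each culture was sequenced. The deposited names carry a code for each culture that may stand for passage and that differs between them, but it was not used. A difference in passage cannot be told apart from donor age and supportive capacity either. Intervals given with a ratio are exact (Clopper-Pearson) 95% intervals of the RPKM ratio from the reads, and they cover counting error only.

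Several classes of lincRNA meet in such a list. Host genes of small nucleolar RNAs (snoRNAs) carry, inside their introns, the guide RNAs that direct chemical modification of ribosomal RNA, and their spliced exons are often short-lived. Host genes of microRNAs give rise to the precursors of these small repressors of mRNA. Other lincRNAs start back to back with a protein-coding gene, in a divergent arrangement that shares the DNA between the start sites, and some of these take part in the regulation of the neighbour. In the gut mesenchyme, the layer to which ISEMFs belong, lincRNAs such as Fendrr and Carmn are known companions of the transcription factor and microRNA genes that pattern smooth muscle and mesoderm.

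The libraries of supportive and non-supportive ISEMFs held 50674472 and 49615497 reads on genes, and an RPKM of 1 on a gene of 1 kb corresponded to 71.5 and 69.4 reads. Mitochondrial ribosomal RNA made 13.5% and 7.13% of the reads on genes. The myofibroblast genes Acta2 (907.8 and 1410 RPKM) and Vim (325.0 and 407.2 RPKM) were high in both, while Des, the intermediate filament of muscle, was low at 0.575 and 3.40 RPKM. Macrophage markers differed between the libraries. Of 9 such genes, 8 reached an RPKM of 1, all 8 were at least 2-fold lower in supportive ISEMFs, their summed level was 9.47 against 127.8 RPKM, and Tyrobp, Emr1 and Ptprc had no read there. The summed level of 7 epithelial markers was 0.530 against 3.47 RPKM. Krt20 had 0.0799 and 3.13 RPKM, while Cdh1 had 0.427 and 0.0497 RPKM, in the opposite direction. Epcam and Krt8 had 0 reads in supportive and 5 and 4 reads in non-supportive ISEMFs, Krt18 had 0 and 19 reads, and Cdx2 had 0 reads in both. Of 5 smooth muscle markers, 3 were at least 2-fold lower in supportive ISEMFs and 0 higher, among them Myh11 at 26.3 and 108.2 RPKM. S100b, with 6.69 and 0.116 RPKM, was the only 1 of 6 neuron and glia markers at the minimum. The 5 proliferation markers at the minimum all had a higher RPKM in supportive ISEMFs, with 0 past 2-fold. In such bulk libraries, fewer cells of a type and less RNA per cell cannot be told apart, and the part of these markers in the lincRNA differences was not tested.

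Most of the lincRNAs were present at a low level. The median RPKM of the 137 genes was 1.56 in supportive and 1.92 in non-supportive ISEMFs, against 4.40 and 4.36 for the 9110 protein-coding genes chosen by the same minimum. An RPKM of 5 was reached by 26 lincRNAs, 10 by 15 of them and 50 by Snhg5 alone. The reads behind a lincRNA ranged from 68 to 67885 over both libraries, with a median of 607. All lincRNAs together took 120500 reads (0.238% of reads on genes) in supportive and 151255 reads (0.305%) in non-supportive ISEMFs, and their summed RPKM was 545.2 against 704.6. The 5 lincRNAs with the most reads held 47.3% and 51.4% of these reads. In the mm9 build, the genes lay on all 19 autosomes, with 3 to 11 on each, and had a median of 3 exons and 2203 exonic bases.

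The most abundant lincRNA was Snhg5, a snoRNA host, at 62.5 RPKM in supportive and 92.7 RPKM in non-supportive ISEMFs. 2410006H16Rik, which also holds snoRNAs, followed at 48.8 and 28.6 RPKM. Gas5, a snoRNA host named for its accumulation in growth-arrested cells, had 35.2 and 47.4 RPKM. In the order of the higher of both libraries, these 3 snoRNA hosts came first, and of the 3, 2410006H16Rik was the one with the higher RPKM in supportive ISEMFs. Gas5 was divided by a length of 11685 bases in the deposited table, although GENCODE vM1, an annotation of mm9, has it span 4118 bases. With the 3760 exonic bases given there, its level would be 109.4 and 147.4 RPKM, above Snhg5, while the ratio between libraries would not change. Snhg1 (26.6 and 43.3 RPKM) and 1810014B01Rik (37.8 and 38.2 RPKM) followed in that order, and the second of these was level between the libraries (ratio 0.988, interval 0.948 to 1.03). Tug1, a lincRNA first found through its need in retinal development, had 12.6 and 22.5 RPKM, and Gm17344 had 16.8 and 25.8 RPKM. 1700020I14Rik, which RefSeq names Oip5os1 and which is also known as Cyrano, had 16.1 and 17.8 RPKM. Fam150a had 16.9 and 19.9 RPKM, and RefSeq lists it as the protein-coding gene Alkal1.

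**Figure D1:**
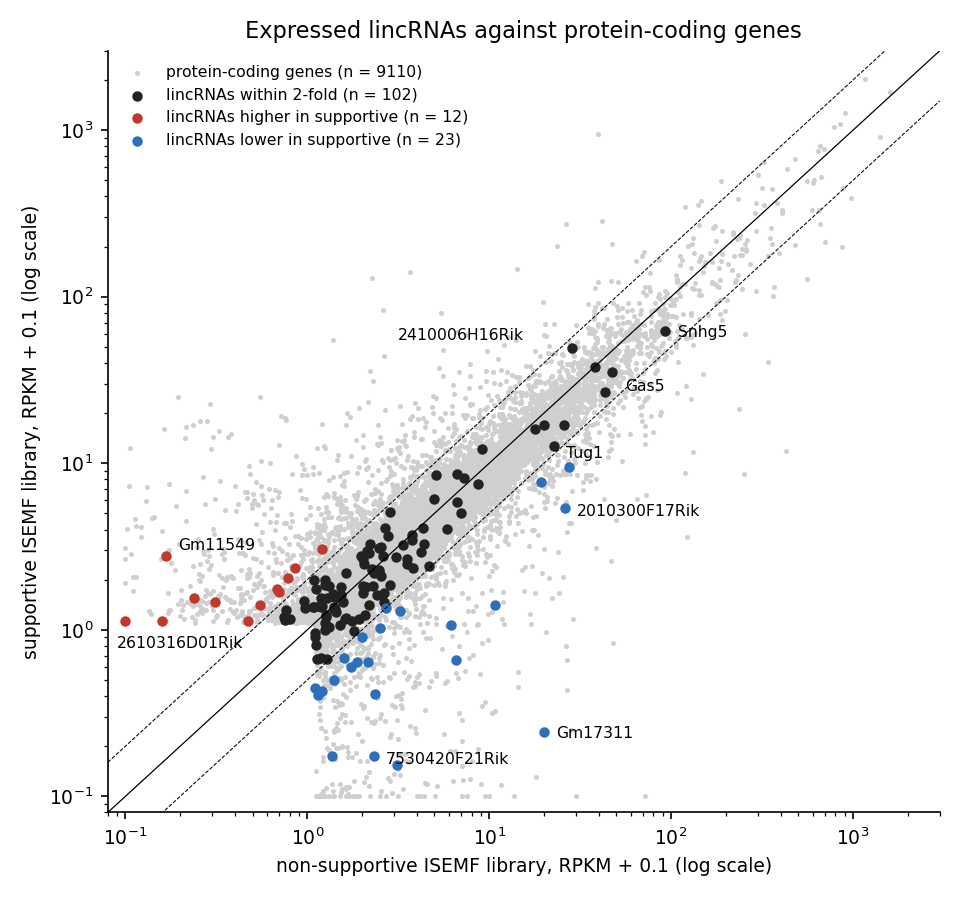
RPKM + 0.1 in the non-supportive library (x axis, log scale) against the supportive library (y axis, log scale) for protein-coding genes (grey) and the 137 lincRNAs, coloured by whether they lie past 2-fold, which the dashed lines mark. The 12 lincRNAs higher in supportive ISEMFs all lie below an RPKM of 3, whereas the 23 lower ones reach up to 27.3 RPKM.

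Of the 137 lincRNAs, 35 (25.5%) differed by at least 2-fold, with 0.1 added to each RPKM, where 18.3% of all 10086 genes at the same minimum did, and 18.2% of the protein-coding ones (9.25% higher and 8.98% lower). In supportive ISEMFs, 12 lincRNAs (8.76%) were higher, beside 9.01% of all genes, and 23 (16.8%) were lower, beside 9.27% of all genes. The median log2 ratio of supportive over non-supportive ISEMFs was -0.14 for the lincRNAs and -0.07 for all genes, and the median absolute log2 ratio was 0.53 against 0.42. With a pseudocount of 1 in place of 0.1, 10.2% of the lincRNAs and 11.9% of all genes were past 2-fold, and without the minimum 12.1% of 948 lincRNAs and 16.9% of 21596 genes were, so the larger share among the lincRNAs did not hold there. A ratio below 0 on the log2 scale was found for 83 lincRNAs and above 0 for 54, so that 60.6% lay below 0, beside 55.3% of all genes. Other noncoding RNAs, typed as processed transcripts, gave 34 of 104 (32.7%) past 2-fold. Among protein-coding genes with a highest RPKM from 1 to 5 the share was 18.8% (10.1% higher and 8.69% lower), and among the 111 lincRNAs below 5 it was 25.2% (10.8% higher and 14.4% lower).

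The higher and lower lincRNAs differed in level. The 12 higher ones had a highest RPKM between 1.03 and 2.96, and 9 of them stayed below 2. The 23 lower ones ranged from 1.0 to 27.3 RPKM in their higher library. Of the 26 lincRNAs that reached 5 RPKM, 7 were lower by at least 2-fold and 0 were higher, beside 9.25% lower and 8.47% higher of the protein-coding genes at that level. Counting error alone left 30 of the 35 with an interval wholly past 2-fold, 11 higher and 19 lower. These are 21.9% of the lincRNAs (8.03% higher and 13.9% lower), beside 15.3% of all genes (7.6% higher and 7.65% lower). The intervals of 84 lincRNAs lay within 2-fold either way and those of 30 included a ratio of 1.

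**Figure D2:**
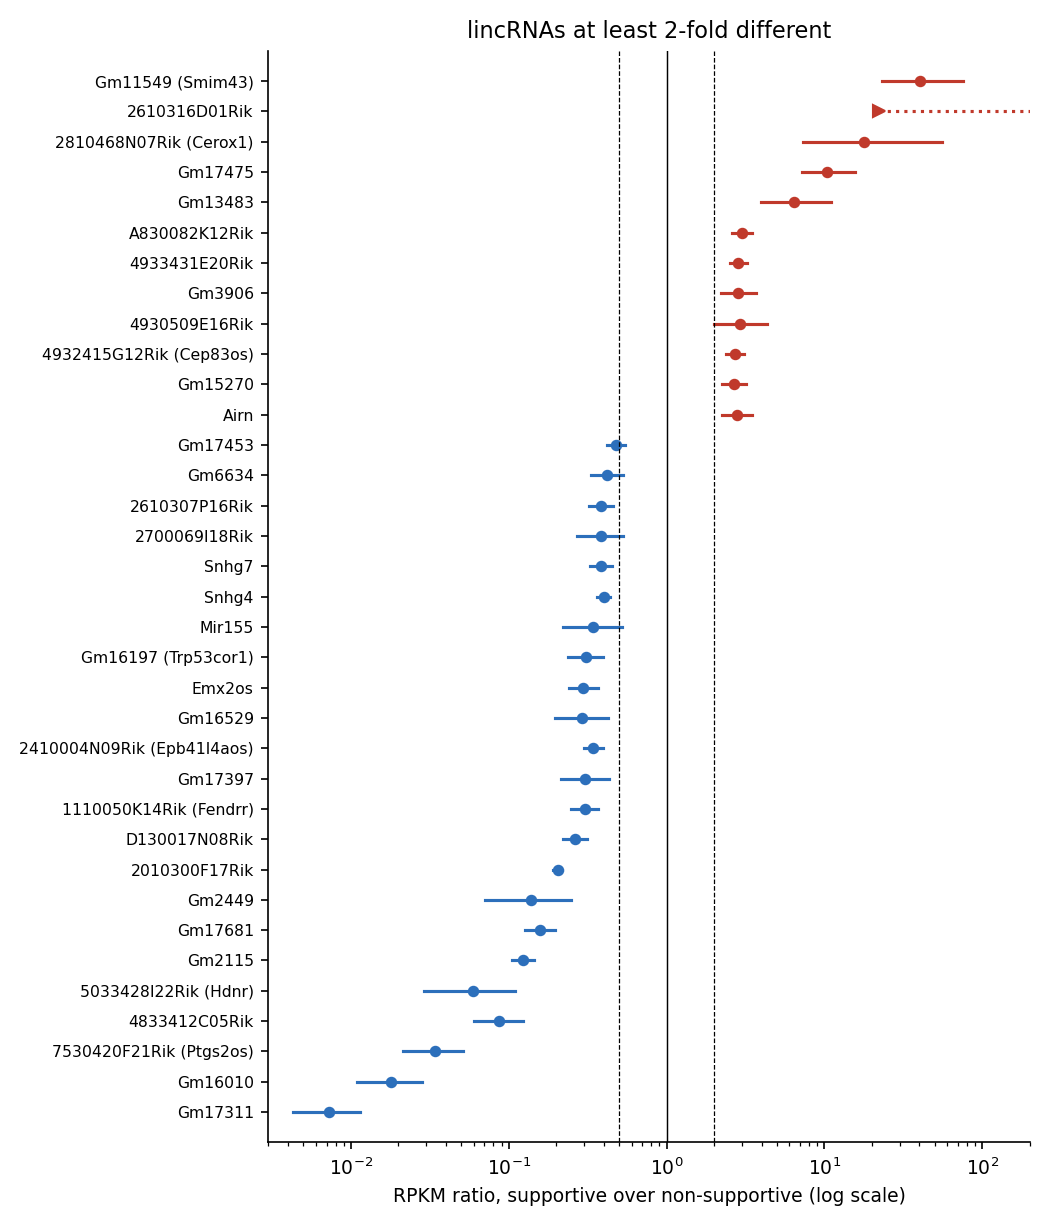
RPKM ratio of supportive over non-supportive ISEMFs (x axis, log scale) for the 35 lincRNAs past 2-fold, with exact 95% intervals for counting error, and with RefSeq names in brackets where they differ. Dashed lines mark 2-fold, the solid line marks a ratio of 1, and the arrow marks the bound for 2610316D01Rik set against 3 reads, since it had 0 reads in the non-supportive library. The ratio is 0.00725 for Gm17311 at the bottom and 40.2 for Gm11549 at the top, above 2610316D01Rik, which has no upper limit.

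Host genes of snoRNAs were abundant gene for gene, with a median highest RPKM of 6.86 against 1.93 for lincRNAs without small RNAs, and mostly lay below a ratio of 1. Of the 13 lincRNAs with an annotated snoRNA inside them, 10 had a lower RPKM in supportive ISEMFs and 3 a higher one, with a median log2 ratio of -0.48 beside -0.07 over all genes. These 13 genes held 39.6% of the lincRNA reads in supportive and 42.7% in non-supportive ISEMFs, and their summed level was 213.4 against 285.9 RPKM. Past 2-fold were 3 of them (23.1%), all lower, beside 18.3% of all genes in either direction and 9.27% lower.

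2410004N09Rik, which RefSeq names Epb41l4aos, had 9.39 RPKM (269 reads) in supportive and 27.3 RPKM (760 reads) in non-supportive ISEMFs, a log2 ratio of -1.53. Snhg4 had 7.63 and 19.1 RPKM, 2.50-fold lower with an interval of 2.28 to 2.75. Snhg7 had 1.20 and 3.13 RPKM, 2.60-fold lower with an interval of 2.22 to 3.06. These 3 intervals lay wholly past 2-fold. The hosts with the most reads differed less, and in the same direction, with log2 ratios of -0.43 for Gas5, -0.57 for Snhg5 and -0.70 for Snhg1. Snhg12, Gm11974 (Snhg15 in RefSeq) and 9430008C03Rik (Snhg17 in RefSeq) had log2 ratios of -0.18, -0.33 and -0.58. The exceptions were 2410006H16Rik at 0.77, 2900076A07Rik at 0.42 and Snord123 at 0.30. The small RNAs themselves were hardly measured, since the 50 snoRNA genes inside these hosts had 136 reads in supportive and 252 reads in non-supportive ISEMFs in all.

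Transcripts of snoRNA hosts often begin with a run of pyrimidines, the mark of RNAs whose translation follows the growth state of the cell. The bases around the annotated start are therefore shown for 5 hosts. These are not the 5 most abundant, since 2410004N09Rik and Snhg4 were not searched. Rian, with a longest run of 6, is not shown although its highest RPKM of 6.86 is above the 6.58 of Snhg12. The 5 windows therefore do not stand for all 11 searched. Each window runs from 15 bases before the start to 20 bases after it, 5′ to 3′ on the gene's strand of mm9, with the longest run of C or T in capitals. The windows are chr9:88417701-88417736 on the minus strand for Snhg5, and, on the plus strand, chr11:62416364-62416399 for 2410006H16Rik, chr1:162964538-162964573 for Gas5, chr19:8797971-8798006 for Snhg1 and chr4:131864578-131864613 for Snhg12.
Snhg5: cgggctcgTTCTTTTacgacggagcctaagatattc
2410006H16Rik: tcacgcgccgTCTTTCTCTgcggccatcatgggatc
Gas5: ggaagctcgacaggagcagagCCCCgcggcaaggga
Snhg1: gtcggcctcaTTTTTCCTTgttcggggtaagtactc
Snhg12: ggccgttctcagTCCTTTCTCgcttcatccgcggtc
A run of at least 7 anywhere in the window, before or after the start, was present in 6 of 11 host windows searched (54.5%). It was present in 32.0% of 122 windows of the other lincRNAs and in 21.7% of 21849 windows of protein-coding genes. The counted runs of Snhg5 and 2900076A07Rik lie wholly before the annotated start, so the count does not show how the transcripts begin. The Gas5 window has a longest run of 4. The starts are as annotated and were not checked against the reads, so a window without a run does not show that the transcript lacks one. Of the 6 hosts with such a run, 3 were higher in supportive ISEMFs (2410006H16Rik, 2900076A07Rik and Snord123) and 3 lower (Snhg1, Snhg5 and Snhg12). The 5 searched hosts without it were lower. These counts leave out 2410004N09Rik and Snhg4, both at least 2-fold lower, whose windows were not searched.

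**Figure D3:**
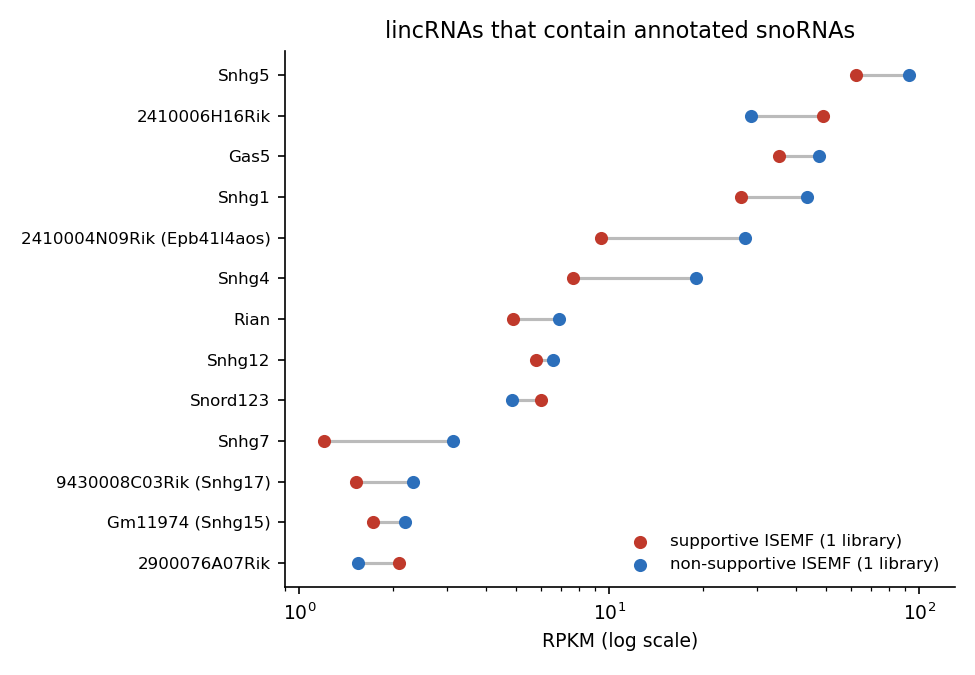
RPKM (x axis, log scale) of the 13 lincRNAs that contain annotated snoRNAs, in the supportive (red) and the non-supportive (blue) library, ordered by the higher value. Red lies left of blue for 10 genes, with the widest gaps at 2410004N09Rik, Snhg4 and Snhg7.

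The proteins that join snoRNAs in the active particle were listed for comparison. Of 9 such proteins, 7 reached an RPKM of 1. All 7 had a lower RPKM in supportive ISEMFs, beside 55.3% of all genes, and 1 of them passed 2-fold, beside 18.3%. That gene, Nop56, a core protein of the box C/D particle, had 2.01 and 4.19 RPKM (log2 ratio -1.02), while its partner Nop58 had 49.4 and 82.3 RPKM (-0.74). The median log2 ratio of the 7 was -0.74. In a list of 22 names of known snoRNA hosts, of any annotated type, 14 were matched by name to a listed gene. Of these, 11 reached the minimum, and 9 of the 11 are among the lincRNAs above. All 11 matched genes were below 0 and 3 were at least 2-fold lower, beside 55.3% and 9.27% of all genes. Their median log2 ratio was -0.58. The matched genes leave out 2410006H16Rik, 2900076A07Rik and Snord123, the lincRNA hosts above 0. They also leave out 2410004N09Rik (Epb41l4aos), which was lower and which the list names under another spelling. The counts therefore hold for the matched genes only, and the shared direction is not that of all known hosts.

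Annotated microRNA genes lie inside 6 of the lincRNAs, among them Rian, which also holds snoRNAs, and 1 of the 6 (16.7%) lay past 2-fold, on the lower side, beside 18.3% of all genes in either direction. Mir155, the host of miR-155, a microRNA known from activated immune cells, had 0.344 RPKM (31 reads) in supportive and 1.0 RPKM (88 reads) in non-supportive ISEMFs. It was 2.92-fold lower, with an interval of 1.92 to 4.55 that reaches below 2-fold. The macrophage markers that also were lower in supportive ISEMFs are given above, and their part in this difference was not tested. Dleu2, the host of miR-15a and miR-16 in a region often deleted in leukaemia, had 1.73 and 1.21 RPKM (log2 ratio 0.48). Rian (4.89 and 6.86 RPKM) and Mirg (2.62 and 2.96 RPKM), noncoding RNAs of the imprinted cluster that also holds Meg3, had log2 ratios of -0.48 and -0.17.

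The mature microRNAs that RefSeq places in these hosts are shown with the seed, bases 2 to 8, in capitals, because the seed decides which mRNAs they pair with. Dleu2 carries a pair of microRNAs with the same seed, and so do the distinct Mirg genes of miR-453 and miR-496a. They are read 5′ to 3′ from RefSeq on the GRCm38.p6 build.
miR-155-5p (Mir155): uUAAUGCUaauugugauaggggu
miR-15a-5p (Dleu2): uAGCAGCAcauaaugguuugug
miR-16-5p (Dleu2): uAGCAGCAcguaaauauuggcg
miR-370-3p (Rian): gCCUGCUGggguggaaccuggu
miR-453 (Mirg): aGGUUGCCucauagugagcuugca
miR-496a-5p (Mirg): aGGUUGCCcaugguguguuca
RefSeq lists 19 mature microRNAs from 10 genes in Mirg, 6 from 3 genes in Rian, 4 from 2 genes in Dleu2 and 2 from 1 gene in Mir155. The libraries measured the host transcripts, and the microRNA genes inside the hosts had 9 and 10 reads in all, so the levels of the mature microRNAs were not measured. RefSeq also places miR-6368 in 2610307P16Rik and miR-1839-5p in 2900076A07Rik. 2610307P16Rik had 0.573 and 1.49 RPKM, 2.60-fold lower with an interval of 2.19 to 3.11. 2900076A07Rik, given above among the snoRNA hosts, was within 2-fold, with a log2 ratio of 0.42. In a list of 15 names of known microRNA host RNAs, of any annotated type, not every name was matched to a listed gene. Of the matched genes, 5 reached the minimum, with 1 higher and 1 lower by 2-fold, neither of them among the 137. The host names of miR-155 and miR-143 were not matched. These counts therefore leave out Mir155, which was lower as given above, and Gm16908 (Carmn), which was within 2-fold. The shares over all genes were 9.01% higher and 9.27% lower. Dnm3os, the host of miR-199a and miR-214, had 27.6 and 11.4 RPKM (2.41-fold higher), and Mir17hg, the host of the miR-17 to miR-92 cluster, had 0.289 and 1.22 RPKM (log2 ratio -1.77). Among 10 proteins that process or load microRNAs, 8 reached the minimum and 0 differed by 2-fold, where 18.3% of all genes did.

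Imprinted lincRNAs differed among themselves. Airn, which is transcribed through the promoter of Igf2r and silences it on the paternal chromosome, had 1.03 RPKM (344 reads) in supportive and 0.370 RPKM (120 reads) in non-supportive ISEMFs. It was 2.79-fold higher, with an interval of 2.26 to 3.46, and Igf2r, which clears lysosomal enzymes and IGF2 from the cell surface, had 44.4 and 25.4 RPKM (log2 ratio 0.80). Airn overlaps the Igf2r gene on the other strand, and the library kit does not keep strand. Rian and Mirg, from the other cluster, were within 2-fold.

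Of the lincRNAs linked to p53 and growth, Gm16197, which RefSeq names Trp53cor1 and which is known as lincRNA-p21, had 0.402 RPKM (85 reads) in supportive and 1.31 RPKM (269 reads) in non-supportive ISEMFs. It was 3.26-fold lower, with an interval of 2.54 to 4.21. Its neighbour Cdkn1a, the cyclin-dependent kinase inhibitor p21 and a main target of p53, had 56.5 and 97.6 RPKM (log2 ratio -0.79). Tug1 had a log2 ratio of -0.83, whereas Pvt1, the lincRNA downstream of Myc, was level at 2.21 and 2.18 RPKM (interval of the ratio 0.935 to 1.10), although Myc itself had 2.76 and 5.21 RPKM. In the list of 6 expressed growth-linked RNAs, which also holds the processed transcript Mir17hg, 2 were lower and 0 higher by 2-fold. Over all genes, 9.27% were lower and 9.01% higher.

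Developmental lincRNAs were few. 1110050K14Rik, which RefSeq names Fendrr, a regulator of mesoderm beside the gut mesenchyme factor Foxf1a, had 0.540 RPKM (134 reads) in supportive and 1.78 RPKM (430 reads) in non-supportive ISEMFs, 3.30-fold lower with an interval of 2.71 to 4.04. Foxf1a had 0.286 and 0.707 RPKM, both under the minimum. Gm16908, which RefSeq names Carmn, the host region of the smooth muscle microRNAs miR-143 and miR-145, had 3.02 and 2.43 RPKM (log2 ratio 0.30). 5033428I22Rik, which RefSeq names Hdnr (Handsdown), had 0.0755 RPKM (11 reads) in supportive and 1.27 RPKM (180 reads) in non-supportive ISEMFs. Its neighbour Hand2, a transcription factor of heart and gut mesenchyme whose start lies 11135 bases away, had 1.75 and 5.18 RPKM (log2 ratio -1.51). Miat, Sox2ot and the lincRNA gene of Tunar had 0 reads in both libraries.

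The largest difference was at Gm17311 (chr1:152006173-152012078, minus strand, mm9), with 0.144 RPKM (18 reads) in supportive and 19.9 RPKM (2412 reads) in non-supportive ISEMFs. It was 138-fold lower, with an interval of 87.1 to 233, and it overlaps no other annotated gene. Its nearest coding start is that of Ptgs2, the inducible prostaglandin synthase COX-2, 64824 bases away, which had 11.7 and 428.7 RPKM (log2 ratio -5.18). 7530420F21Rik (chr1:151922003-151947004, minus strand), which RefSeq names Ptgs2os, lies on the other side of Ptgs2 and had 0.0750 RPKM (23 reads) and 2.22 RPKM (660 reads), 29.5-fold lower with an interval of 19.5 to 46.9. Both lincRNAs around Ptgs2 were thus lower together with it.

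The second largest difference was at Gm16010 (chr9:96916385-96922462), with 0.0541 RPKM (20 reads) and 3.0 RPKM (1078 reads). It was 55.5-fold lower, with an interval of 35.7 to 91.2, and it shares 650 exonic bases with a gene on the other strand. The nearest coding gene Spsb4, an adaptor of a ubiquitin ligase, had 0.148 and 0.988 RPKM. 4833412C05Rik had 0.562 RPKM (36 reads) and 6.44 RPKM (401 reads), a log2 ratio of -3.30, while its nearest coding gene Synm, an intermediate filament protein of muscle, differed in the opposite direction, at 1.22 and 0.0753 RPKM.

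2010300F17Rik was the most abundant of the strongly lower lincRNAs, with 5.28 RPKM (1221 reads) and 25.9 RPKM (5828 reads), 4.91-fold lower with an interval of 4.62 to 5.23. It shares 186 exonic bases with a gene on the other strand, and its nearest start, that of the sorting nexin Snx11, was level at 1.11 and 1.01 RPKM. Gm2115 had 1.31 and 10.6 RPKM (8.10-fold lower), and RefSeq lists it as protein-coding. Gm17681 had 0.964 and 6.08 RPKM (log2 ratio -2.54), and Gm2449 had 0.311 and 2.26 RPKM (log2 ratio -2.52). D130017N08Rik, at 0.540 and 2.06 RPKM, had a log2 ratio of -1.75. Of the 23 lower lincRNAs, 17 were under 1 RPKM in supportive ISEMFs.

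Among lincRNAs with reads in both libraries, the largest difference in the other direction was at Gm11549 (chr3:36413979-36420735, minus strand), which had 2.66 RPKM (538 reads) in supportive and 0.0661 RPKM (13 reads) in non-supportive ISEMFs. It was 40.2-fold higher, with an interval of 23.3 to 76.0, and RefSeq lists it as the protein-coding gene Smim43, a small membrane protein. Its neighbour Exosc9, a subunit of the RNA exosome, was level at 2.68 and 2.48 RPKM. 2610316D01Rik had 1.03 RPKM (68 reads) in supportive ISEMFs and 0 reads in non-supportive ISEMFs, at least 22-fold higher if set against 3 reads. 2810468N07Rik, which RefSeq names Cerox1 and which is known to raise mitochondrial complex I subunits, had 1.03 RPKM (91 reads) and 0.0583 RPKM (5 reads), 17.7-fold higher with an interval of 7.31 to 55.8.

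Gm17475 had 1.45 RPKM (333 reads) and 0.139 RPKM (31 reads), 10.4-fold higher with an interval of 7.21 to 15.6. It shares 635 exonic bases with a gene on the other strand, and its neighbour Slc7a2, a transporter of arginine and lysine, had 21.4 and 1.83 RPKM (log2 ratio 3.48). Gm13483 had 1.36 RPKM (126 reads) and 0.212 RPKM (19 reads), a log2 ratio of 2.23. The other 7 higher lincRNAs had log2 ratios from 1.27 to 1.47. A830082K12Rik, at 2.26 and 0.756 RPKM, starts 1740 bases from Nr2f1, a nuclear receptor of development, which had 1.11 and 0.656 RPKM. 4932415G12Rik, which RefSeq names Cep83os, was the most abundant of the 12, at 2.96 and 1.10 RPKM. Gm15270 (1.60 and 0.599 RPKM) shares 570 exonic bases on the other strand and lies at Ctgf, a matricellular growth factor with 675.8 and 481.9 RPKM. Gm3906, 4933431E20Rik and 4930509E16Rik had log2 ratios of 1.36, 1.39 and 1.36. Of the 12 higher lincRNAs, 11 were under 1 RPKM in non-supportive ISEMFs.

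LincRNA genes that start back to back with a coding gene were considered next. Of the 37 lincRNAs in a divergent arrangement within 5 kb, 13 had at least 2-fold between the libraries in the lincRNA or the neighbour, and the 10 in which the lincRNA did are shown. In 5 of the 10, the values of the neighbour lay past 2-fold in the same direction too. Of these neighbours, Sox8, Pcdh10 and Foxf1a did not reach the minimum RPKM in either library. Where the neighbour did reach it, it was past 2-fold in the same direction for 2 of 7 lincRNAs. By the same rule it was so for 16 of 69 protein-coding genes past 2-fold and divergent within 5 kb. These lincRNA counts rest on few genes, and the 13 of 37 has no such comparison. Foxf1a, 1354 bases from 1110050K14Rik (Fendrr), was 2.47-fold lower with an interval of 1.53 to 4.11. The other 4 of the 5 pairs start within 1 kb of each other. 7530420F21Rik and Ptgs2 start 250 bases apart and both were lower in supportive ISEMFs, as given above. Emx2os, the antisense partner of the homeobox gene Emx2, had 0.329 RPKM (118 reads) and 1.11 RPKM (386 reads), and Emx2, whose start is 55 bases away, had 0.707 and 3.76 RPKM (log2 ratios -1.49 and -2.26). 2810468N07Rik and Sox8, a transcription factor of neural crest and muscle progenitors, start 230 bases apart, and Sox8 had 0.983 RPKM (219 reads) and 0.0739 RPKM (16 reads). 2610316D01Rik and Pcdh10, a protocadherin of cell adhesion, start 138 bases apart, and Pcdh10 had 0.472 RPKM (359 reads) and 0.00947 RPKM (7 reads).

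The DNA between the start sites of these 4 pairs is shown, since it is the stretch that each pair shares. It is read from mm9, 5′ to 3′ towards the coding gene, at chr1:151947005-151947253 on the plus strand for 7530420F21Rik and Ptgs2, chr19:59533126-59533179 on the plus strand for Emx2os and Emx2, chr17:25707632-25707860 on the minus strand for 2810468N07Rik and Sox8, and chr3:45182183-45182319 on the plus strand for 2610316D01Rik and Pcdh10. Capitals mark the E-box CACGTG, the sequence TGACG of cyclic AMP response elements and the box CCAAT, each on either strand.
7530420F21Rik-Ptgs2: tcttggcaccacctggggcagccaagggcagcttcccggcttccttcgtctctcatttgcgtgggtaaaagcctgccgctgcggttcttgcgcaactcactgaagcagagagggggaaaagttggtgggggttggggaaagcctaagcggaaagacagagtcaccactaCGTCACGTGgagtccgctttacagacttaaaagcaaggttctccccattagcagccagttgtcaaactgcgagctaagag
Emx2os-Emx2: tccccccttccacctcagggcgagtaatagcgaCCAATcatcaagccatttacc
2810468N07Rik-Sox8: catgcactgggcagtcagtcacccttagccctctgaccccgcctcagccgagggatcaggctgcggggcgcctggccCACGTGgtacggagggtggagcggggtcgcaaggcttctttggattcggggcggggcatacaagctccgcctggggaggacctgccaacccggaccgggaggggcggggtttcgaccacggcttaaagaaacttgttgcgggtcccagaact
2610316D01Rik-Pcdh10: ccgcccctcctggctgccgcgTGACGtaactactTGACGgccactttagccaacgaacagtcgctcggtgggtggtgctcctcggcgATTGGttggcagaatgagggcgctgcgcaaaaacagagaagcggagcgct
The Ptgs2 stretch holds a TGACG, on the other strand, that overlaps its CACGTG. Windows of 249 bases before 21849 protein-coding starts hold CACGTG in 6.53% and TGACG in 19.4%, and windows of 137 bases hold TGACG in 14.0% and CCAAT in 24.7%. Windows of 54 bases hold CCAAT in 10.4% and those of 229 bases hold CACGTG in 6.21%. Of the 27 stretches searched between lincRNAs and divergent coding genes, 3 hold CACGTG (11.1%), 12 hold TGACG (44.4%) and 12 hold CCAAT (44.4%). These stretches run from 22 to 681 bases, so their shares cannot be set against those of windows of a fixed length. A match of letters is a description and not a binding site.

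In the other 5 pairs, the lincRNA differed by at least 2-fold and the neighbour did not. Gm13483 (log2 ratio 2.23) starts 9 bases from Mmadhc, a gene of vitamin B12 metabolism with 28.5 and 34.9 RPKM. Gm2449 (-2.52) starts 23 bases from Wdr48, a cofactor of deubiquitinases with 5.0 and 5.40 RPKM. Their coding neighbours were thus nearly level while the lincRNAs differed in opposite directions. Gm16529 (-1.50) starts 208 bases from Arhgap10, which had 10.6 and 19.5 RPKM. 4930509E16Rik and Rfx7, and 4932415G12Rik and Ccdc41, had neighbours within 2-fold as well. The reverse was found in 3 further pairs, where the coding gene was past 2-fold and the lincRNA was not. Rab30 (1.76 and 3.83 RPKM, log2 ratio -1.08) lies beside 4632427E13Rik (-0.09). Sema5a (5.09 and 1.89 RPKM, 1.38) lies beside Snord123 (0.30), and Foxred2 (1.21 and 0.242 RPKM, 1.93) beside Gm17638 (-0.04).

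**Figure D4:**
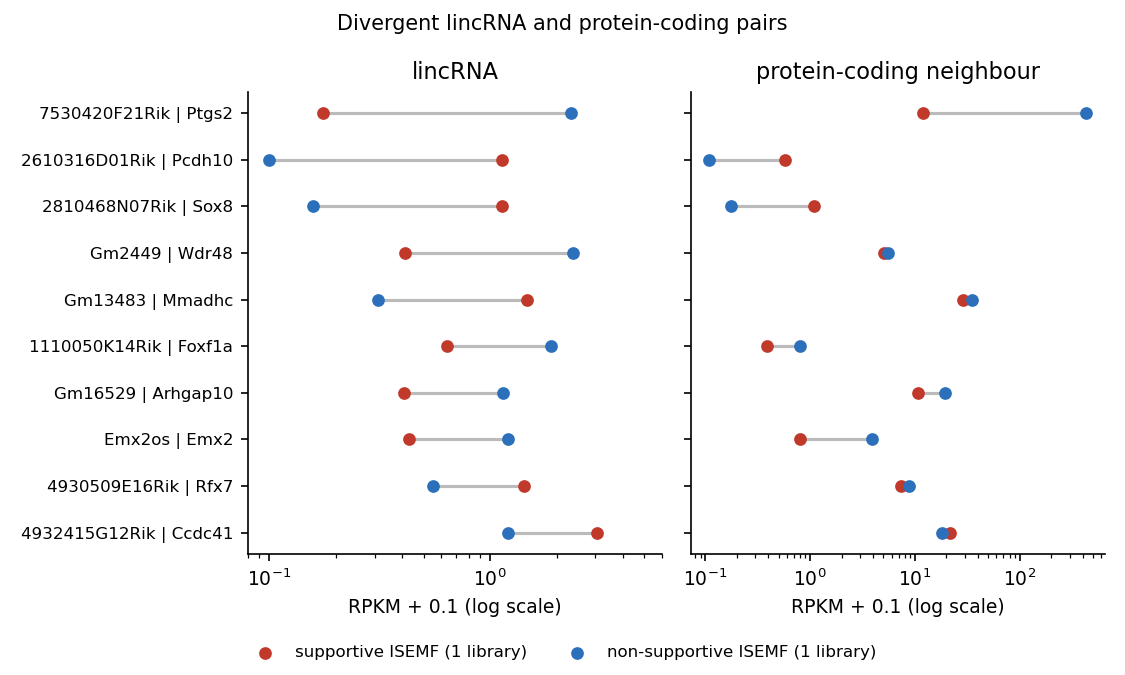
RPKM + 0.1 (x axes, log scale) of 10 lincRNAs (left) and their divergent protein-coding neighbours (right) in the supportive (red) and non-supportive (blue) library. The gap is wide in both panels for 7530420F21Rik and Ptgs2, 2610316D01Rik and Pcdh10, 2810468N07Rik and Sox8, and Emx2os and Emx2, and nearly closed on the right for Wdr48, Mmadhc, Rfx7 and Ccdc41.

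Over all lincRNAs, 101 of the 137 had a nearest protein-coding gene, by start site, that reached the minimum. The lincRNA and this neighbour had log2 ratios of the same sign in 65 of 101 pairs (64.4%), and across pairs Pearson's r was 0.49 and Spearman's rho 0.40. All pairs share the same 2 libraries, so these values describe genes and not replicates. The r rested on the lincRNAs beside Ptgs2. Without these 2, it was 0.24 and rho was 0.37 over 99 pairs, with 63 of the same sign. Among lincRNAs with no other gene within 1 kb, small RNA genes aside, 10 of 19 pairs had the same sign. Their r was 0.42, with Gm17311 still among them. With the neighbour chosen by gene body instead, 67 of 107 pairs had the same sign and r was 0.54. For the 32 divergent pairs within 1 kb, 24 had the same sign (75.0%), r was 0.66 and rho 0.53, and without 7530420F21Rik r was 0.42 and rho 0.49 over 31 pairs. Protein-coding genes and their nearest other coding start gave 57.7% of the same sign and an r of 0.24 over 4919 genes, and 60.5% and 0.31 over the 727 in a divergent arrangement within 1 kb. Of the 35 lincRNAs past 2-fold, 27 had such a neighbour, which was past 2-fold in the same direction for 7, in the opposite direction for 1, and within 2-fold for 19. The share in the same direction was 25.9%, beside 20.2% of the 820 protein-coding genes past 2-fold with such a neighbour. Of the 7, 2 are the lincRNAs beside Ptgs2, which count the same neighbour, so the larger share rests on few genes.

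**Figure D5:**
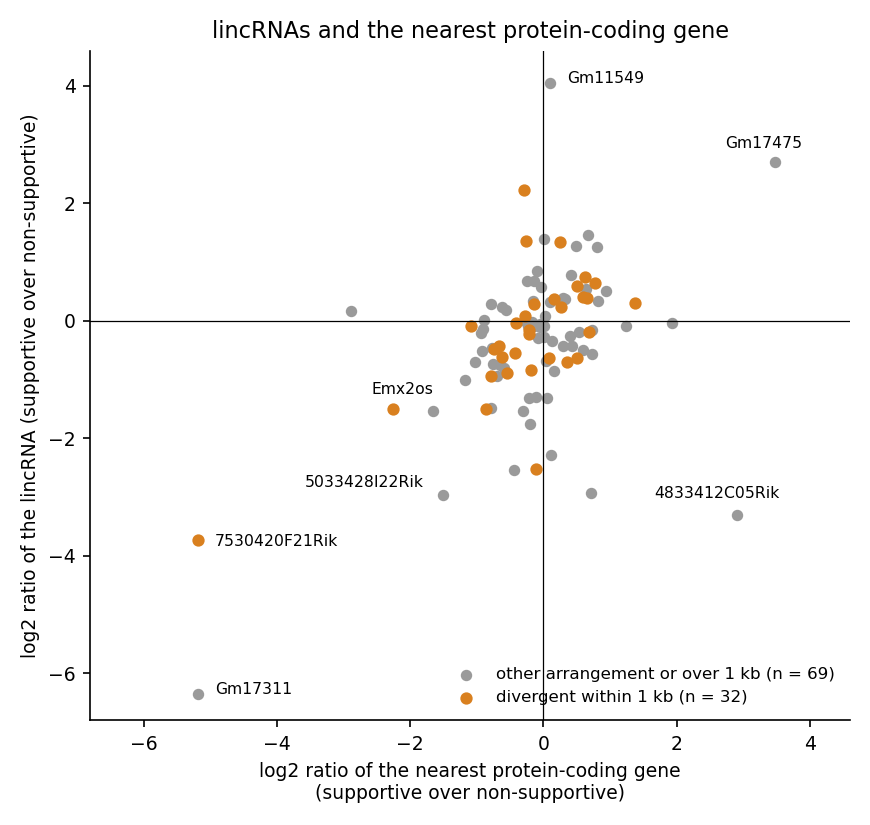
Log2 ratio of the nearest protein-coding gene (x axis) against that of the lincRNA (y axis) for 101 pairs, with the 32 divergent pairs within 1 kb in orange. Gm17311 and 7530420F21Rik lie apart at the lower left with Ptgs2, Gm17475 lies at the upper right with Slc7a2, and 4833412C05Rik lies at the lower right with Synm.

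The annotation sets limits on some of these genes. Matching by symbol or older symbol on the same chromosome linked 103 of the 137 to RefSeq, which types 85 as lncRNA and 12 as protein-coding, and without the 12, 33 of 125 (26.4%) were past 2-fold, 11 higher and 22 lower. Exonic bases are shared with a gene on the other strand by 56 lincRNAs, 8 of them past 2-fold, and there the reads of both genes cannot be told apart without strand. Among the 81 that share none, 27 (33.3%) were past 2-fold, 7 higher and 20 lower. At the edge of the minimum, 9930014A18Rik (0.854 and 1.0 RPKM) and Mir155 lay just inside, and 4732491K20Rik (0.998 and 0.752 RPKM) and Gm17629 (0.998 and 0.675 RPKM) just outside.

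Proteins and noncoding RNAs that work with lincRNAs were compared as well. Malat1 and Neat1, the nuclear RNAs of speckles and paraspeckles, are typed as processed transcripts and so are not among the 137. Malat1 had 3386 and 3339 RPKM, and Neat1 had 25.0 and 15.6 RPKM, 1.60-fold higher with an interval of 1.58 to 1.62. Of 12 paraspeckle proteins 11 reached the minimum, and of 9 proteins of the Polycomb complex PRC2, which binds several lincRNAs, 8 did. None of these 19 differed by 2-fold, where 18.3% of all genes did. Pspc1, with 9.08 and 14.0 RPKM, had the largest log2 ratio in size, -0.62. The 6 expressed proteins of nonsense-mediated decay, the pathway that degrades many spliced snoRNA host transcripts, had a median log2 ratio of -0.36. Of these, 6 of 6 were below 0 and 0 past 2-fold, beside 55.3% and 18.3% of all genes.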

How the data were processed

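The authors extracted RNA from each ISEMF population, prepared cDNA libraries with the Illumina TruSeq kit, and sequenced single-end reads. Per the labels and the methods, reads were aligned to mm9 with TopHat (TopHat2 2.0.4 in the submitters' processing notes) using Ensembl genes, and unique hits were counted per gene with HTSeq 0.5.4p3, leaving out reads on more than 1 gene. The deposited counts are raw, as whole numbers of reads. The deposited RPKM values are these counts per kilobase of the gene's exons and scaled by library size (71463423 and 69449374 reads). Columns of the authors' own comparison by DESeq (p-values and log2 ratios) and a shorter table of Wnt pathway genes were not used.

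The lincRNAs, gene lists and tests were chosen with earlier results of these data known. Named genes are the 10 most abundant, the 10 with the largest ratio in each direction past 2-fold, those of the role lists, those at the threshold, and up to 10 divergent pairs. With 1 library per population, log2 ratios of RPKM + 0.1 were described and no test was run. A fold is the ratio of RPKM without addition, and against 0 reads it is a bound at 3 reads. Neighbours, spans and sequences came from the NCBIM37 (mm9) genome with GENCODE vM1, which holds all 137 genes and gives the same exon length for 102, and names and microRNAs from RefSeq. Stretches for the motif search were those of at least 20 bases. Alternatives used pseudocounts, minima, folds, TMM factors (edgeR 4.0.16) and size factors (DESeq2 1.42.0). The ratio step was tested on simulated data. Scripts ran in R 4.3.3 and Python 3.11.15, with pandas 2.3.3 for tables, scipy 1.17.1 for intervals, numpy 2.4.6 and matplotlib 3.10.9. The precision of a ratio is that of its reads, at 3 reads 0.0420 and 0.0432 RPKM on a gene of 1 kb.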

Additional observations from a re-analysis of the deposited data

How the results depend on the processing

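No paired analysis was possible because each population has 1 library. The count of 35 lincRNAs past 2-fold became 14 with a pseudocount of 1 (3 higher and 11 lower), 14 at 4-fold (5 and 9), 7 at a minimum RPKM of 5, 115 of 948 with no minimum and 114 of 681 with at least 10 reads and no minimum. The count of 1844 over all genes became 1199 (11.9% of genes, beside 10.2% of lincRNAs), 659 (6.53%, beside 10.2%), 878 of 5061 (17.3%, beside 26.9%), 3660 of 21596 (16.9%, beside 12.1%) and 3032 of 16438 (18.4%, beside 16.7%) under the same alternatives, so the share among lincRNAs was the smaller of both with a pseudocount of 1, with no minimum and with at least 10 reads. The count was 824 of 4385 for protein-coding genes between 1 and 5 RPKM, a range chosen after seeing the data. The median log2 ratio of -0.14 was -0.45 at a minimum of 5, -0.019 with no minimum and -0.028 with at least 10 reads, where the medians over all genes were -0.13, -0.04 and -0.05, so that with the last pair of settings the lincRNA median was nearer 0. The r with the nearest coding gene was 0.96 over 9 pairs at a minimum of 5, and 0.24 without the 2 lincRNAs beside Ptgs2, also chosen after seeing the data. The 10 of 65 genes matched by name to the role lists that were past 2-fold became 2 with a pseudocount of 1, beside 18.3% and 11.9% of all genes. TMM and size factors shifted the log2 ratios by a median of 0.05 and 0.04 and left 34 of the 35 past 2-fold, losing Gm17453, and a pseudocount of 0.001 kept 35 and added Gm16890. With TMM factors, all genes past 2-fold were 976 higher and 863 lower. No lincRNA past 2-fold changed direction under the 4 alternatives of pseudocount and scaling. The cause of the changes was not tested.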
